A study of Homo sapiens with 4 samples.

Results

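RNA of the respiratory chain was examined in Cal-62 cells, a line from an anaplastic thyroid carcinoma, in 2 libraries treated with the vehicle DMSO and 2 treated with niraparib, a drug that blocks the poly(ADP-ribose) polymerases PARP1 and PARP2. The genes were chosen by symbol: the NDUF, UQCR, COX4 to COX8, ATP5 and SDHA to SDHD genes with CYC1, without pseudogenes, and the mRNAs of the mitochondrial genome. This gave 103 of the 16717 genes of the table, 90 encoded in the nucleus and 13 in the mitochondria. The concentration and the duration of the niraparib treatment for these libraries are not given in the sources used here, and whether the replicates were separate cultures is not stated, so p-values measure only the spread between these libraries. All 4 libraries came from this one line with no other agent named. The deposited values are TPM (the share of a gene among the transcripts of a library, corrected for transcript length), which keep no read counts, so the depth is unknown. In bulk RNA given as shares, more of one RNA per cell and less of the others cannot be told apart.

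The respiratory chain passes electrons from NADH and succinate through complexes I, II, III and IV to oxygen, and complex V, the ATP synthase, uses the proton gradient that complexes I, III and IV build. Complexes I, III, IV and V combine proteins of both genomes, whereas complex II is encoded by nuclear genes alone. The mitochondrial genes are transcribed inside the organelle by the polymerase POLRMT with the factors TFAM and TFB2M, as long transcripts that are cut into single mRNAs, while the nuclear genes are transcribed one by one by RNA polymerase II.

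The share of mitochondrial mRNAs was higher with niraparib and among the nuclear partners more genes fell than rose. Of 13 mitochondrial mRNAs, counted by gene, 11 rose, 0 fell and 2 did not pass the test (limma on log2(TPM + 1), Benjamini-Hochberg adjusted p under 0.05 over the 13377 genes tested). MT-ATP8 shares its mRNA with MT-ATP6, and MT-ND4L with MT-ND4, so these are not all separate molecules. Of the 90 nuclear genes 9 rose, 29 fell and 52 did not pass. Over all genes tested 20.8% rose and 11.7% fell, 32.4% in either direction. The median log2 fold change was 0.28 for the mitochondrial mRNAs, -0.15 for the nuclear genes and 0.07 for all genes tested. All 103 genes reached 1 TPM in 2 or more libraries, the filter for testing, but NDUFA4L2 and COX6A2 only through their niraparib libraries, so a difference in them was built into the filter. With at least 1 TPM required in every library 8 nuclear genes rose, among 2652 of all genes kept.

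The groups did not overlap for any of the 13 mitochondrial mRNAs, with niraparib above, as was the case for 41.9% of all genes tested. With niraparib below that share was 29.0%. A gene that passes the test with 2 libraries per group nearly always has its groups apart. Such separation, described for single genes below, is therefore no further support for a call. Among the nuclear genes the fold change was negative for 63 and positive for 27, from -0.73 for NDUFAF5 to 1.65 for COX6A2. Fewer nuclear genes fell and fewer rose when any one library was left out, as was the case over all genes tested. Such a fit keeps 1 library in a group, so its counts, also those by complex below, cannot be set against the main counts. The median log2 fold change of the nuclear genes was then -0.12 and -0.15 without DMSO replicate 1 and 2. It was -0.11 and -0.15 without niraparib replicate 1 and 2. Over all genes tested the median was 0.07 each time. The mitochondrial count was 11 without DMSO replicate 1 and 10 without any one of the other libraries. Scaling by the median of ratios turned the balance over all genes from 2780 higher and 1559 lower to 1998 higher and 2233 lower, with 45 lower and 3 higher nuclear genes and 9 higher mitochondrial mRNAs.

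**Figure D1:**
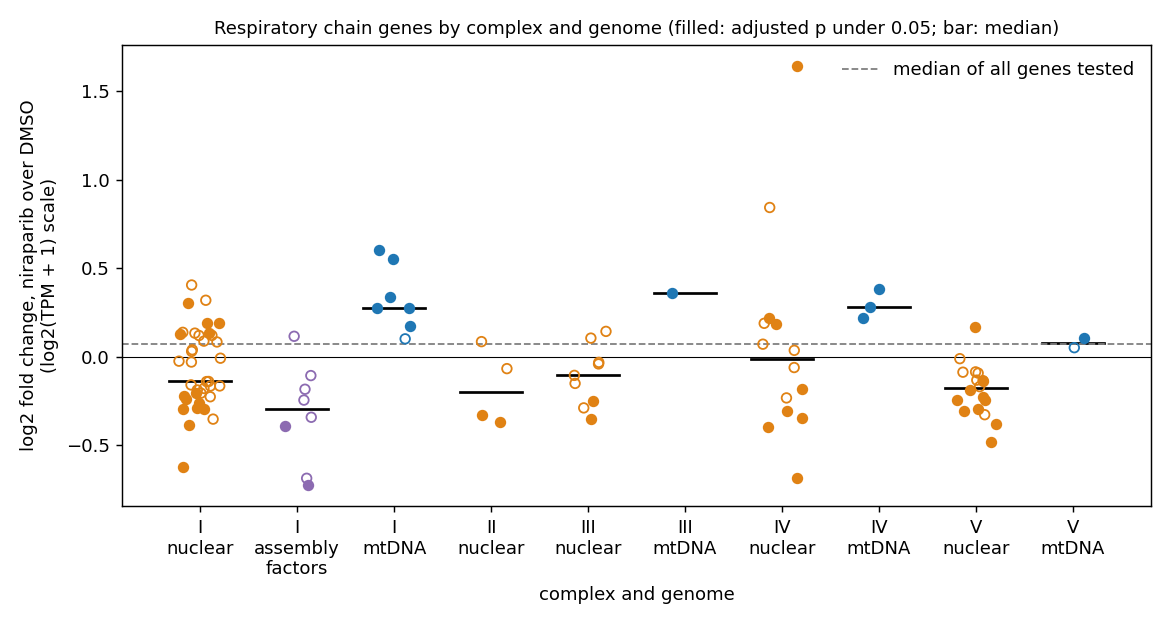
Log2 fold change of niraparib over DMSO (y axis, log2(TPM + 1) scale) for each respiratory chain gene by complex and genome (x axis), filled where the adjusted p was under 0.05, with a bar at the median of each group and a dashed line at the median of all genes tested. The 13 mitochondrial points all lie above 0, although MT-ATP6 and MT-ND3 turn negative under median-of-ratios scaling and MT-ATP6 also under upper quartile scaling, and 63 of the 90 nuclear points lie below it.

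Among the mitochondrial mRNAs of complex I, the NADH dehydrogenase, 6 of 7 rose. MT-ND1 (chrM:3307-4262, GRCh37), a membrane subunit at the ubiquinone site, was at 2706 and 2730 TPM with DMSO and at 4193 and 4055 TPM with niraparib, a log2 fold change of 0.60 ± 0.026 (SE, n = 2 per group, limma adjusted p = 0.00109). Both niraparib libraries lay far above both DMSO libraries, and this was the highest fold change of the 13. MT-ND6 (chrM:14149-14673, minus strand) was at 1542 and 1692 TPM with DMSO and at 2352 and 2388 TPM with niraparib (0.55 ± 0.048, limma adjusted p = 0.00291). It is the only mitochondrial mRNA encoded on the light strand. The counting is not stated to use strand, so reads of MT-ND6 and of the opposite strand cannot be told apart.

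The proton-pumping subunits changed less. MT-ND4 went from 2886 and 2914 to 3664 and 3660 TPM (log2 fold change 0.34, limma adjusted p = 0.00185), MT-ND5 from 3561 and 3495 to 4293 and 4250 TPM (0.28, limma adjusted p = 0.00277), and MT-ND2 from 3484 and 3472 to 3965 and 3879 TPM (0.17, limma adjusted p = 0.0064, or 0.0557 under median-of-ratios scaling and 0.147 without trend and robust priors). In each of them the niraparib libraries were the higher pair. MT-ND4L, which shares an mRNA with MT-ND4, was at 7891 and 7658 TPM with DMSO and at 9790 and 9009 TPM with niraparib (0.27, limma adjusted p = 0.01). MT-ND3, a membrane subunit, was at 5661 and 5394 against 6158 and 5695 TPM and did not pass (0.10 ± 0.045, limma adjusted p = 0.144, and -0.0016 under median-of-ratios scaling). Here the lower niraparib library stood barely above the higher DMSO library.

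Cytochrome b of complex III and the catalytic core of complex IV also rose. MT-CYB was at 3489 and 3531 TPM with DMSO and at 4525 and 4479 TPM with niraparib (log2 fold change 0.36 ± 0.021, limma adjusted p = 0.00168). MT-CO1, the subunit that reduces oxygen, was at 5707 and 5974 against 7749 and 7456 TPM (0.38 ± 0.032, limma adjusted p = 0.00285). MT-CO2, which takes electrons from cytochrome c, was at 8776 and 8597 against 10755 and 10357 TPM (0.28, limma adjusted p = 0.00311), and MT-CO3 at 8532 and 8594 against 10058 and 9824 TPM (0.22, limma adjusted p = 0.00318). All 4 had the niraparib libraries above the DMSO libraries and kept their call without any one library. MT-ND1, MT-ND4, MT-ND6, MT-CYB and MT-CO1 kept it under every alternative run on the mitochondrial mRNAs, which left out the GC adjustments.

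MT-ATP6 and MT-ATP8 of the ATP synthase had, with MT-ND3, the smallest fold changes of the 13. MT-ATP6, the a subunit of the proton channel, was at 3864 and 4093 TPM with DMSO and at 4125 and 4108 TPM with niraparib, a log2 fold change of 0.05 (95% interval -0.03 to 0.13, limma adjusted p = 0.282). DMSO replicate 2 was nearly level with the niraparib libraries, and the sign turned under both other scalings. MT-ATP8 was at 18854 and 18279 TPM with DMSO and at 19958 and 19942 TPM with niraparib (0.10 ± 0.020, limma adjusted p = 0.0164). The MT-ATP8 call did not survive leaving out DMSO replicate 2 (adjusted p = 0.0676), niraparib replicate 1 (0.0719) or niraparib replicate 2 (0.0595), and under median-of-ratios scaling its fold change was 0.0024.

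MT-ATP8 and MT-ATP6 are encoded on one mRNA with overlapping reading frames, as are MT-ND4L and MT-ND4, and the sequences are shown because the TPM within each pair differed widely. MT-ATP8 (chrM:8366-8572) was 4.88 and 4.47 times MT-ATP6 with DMSO and 4.84 and 4.85 times with niraparib. MT-ND4L (chrM:10470-10766) was 2.73 and 2.63 times MT-ND4 with DMSO and 2.67 and 2.46 times with niraparib. MT-ATP8 is 207 bases long and MT-ND4L 297 bases, and per-length values of such short genes depend on how the length was set, which is not given in the sources used here. The reading frames are from GRCh37, with the bases shared with the neighbouring gene in capitals, 46 bases (22.2%) of MT-ATP8 and 7 bases (2.36%) of MT-ND4L.
MT-ATP8: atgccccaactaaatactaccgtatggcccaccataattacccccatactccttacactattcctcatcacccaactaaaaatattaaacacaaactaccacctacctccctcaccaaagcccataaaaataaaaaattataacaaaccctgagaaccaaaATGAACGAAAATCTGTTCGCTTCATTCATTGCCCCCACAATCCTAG
MT-ND4L: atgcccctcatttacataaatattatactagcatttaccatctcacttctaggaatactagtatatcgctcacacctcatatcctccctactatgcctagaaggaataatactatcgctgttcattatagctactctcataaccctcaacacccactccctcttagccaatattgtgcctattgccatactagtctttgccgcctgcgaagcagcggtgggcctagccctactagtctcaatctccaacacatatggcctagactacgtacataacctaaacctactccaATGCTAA

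Copies of mitochondrial DNA in the nuclear genome can share reads with the mitochondrial genes. In the GENCODE transcripts MTATP6P1 was identical to MT-ATP6 at 98.5% of aligned bases and MTCO1P12 to MT-CO1 at 98.6%. MTATP6P1 was at 443, 409, 465 and 446 TPM and MTCO1P12 at 63.8, 77.5, 96.3 and 96.1 TPM in DMSO replicates 1 and 2 and niraparib replicates 1 and 2. Both stood far below the mitochondrial mRNA they resemble in every library. The MTATP6P1 values were not small beside the change in MT-ATP6, whose group means were 3978 and 4117 TPM. MTCO1P12 was itself higher with niraparib (log2 fold change 0.45, limma adjusted p = 0.0247). MTND2P28 (98.4% to MT-ND2) was at 3.06 to 4.54 TPM and MTND6P3 (89% to MT-ND6) at 8.78 to 12.35 TPM. The part of shared reads was not tested. The ribosomal RNAs of the mitochondria, named after their values were seen, were higher with niraparib as well. MT-RNR1 was at 620 and 644 against 995 and 957 TPM (log2 fold change 0.63, limma adjusted p = 0.00168) and MT-RNR2 at 1621 and 1614 against 1989 and 2050 TPM (0.32, limma adjusted p = 0.00289).

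**Figure D2:**
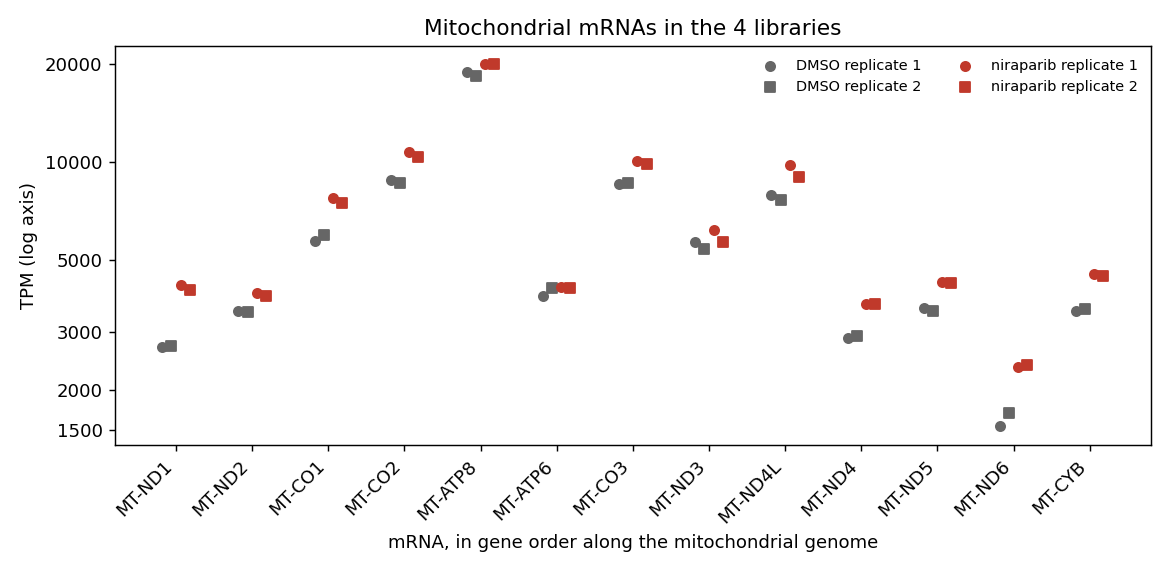
TPM (y axis, log scale) of the 13 mitochondrial mRNAs in gene order (x axis) in each of the 4 libraries, grey for DMSO and red for niraparib, circles for replicate 1 and squares for replicate 2. The gap between the colours is widest at MT-ND1 and MT-ND6 and nearly closed at MT-ATP6.

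In nuclear complex I, 5 of 37 subunits rose, 9 fell and 23 did not pass, with a median log2 fold change of -0.14. These were 13.5% higher and 24.3% lower, beside 20.8% and 11.7% over all genes tested. Those shares also stand beside the counts of the other complexes below. Leaving out DMSO replicate 1, DMSO replicate 2, niraparib replicate 1 or niraparib replicate 2 left 3, 4, 7 or 10 lower genes and 1, 2, 1 or 2 higher genes. The 7 core subunits, which carry the flavin and the iron-sulphur clusters, were divided: 2 rose, 1 fell and 4 did not pass, with 1 higher and 0 or 1 lower when any one library was left out. NDUFV1 (chr11:67373124-67380025), the flavin subunit that binds NADH, was at 198 and 204 TPM with DMSO and at 250 and 247 TPM with niraparib (log2 fold change 0.30 ± 0.040, limma adjusted p = 0.0068). Its niraparib libraries were higher by about the same amount. Its partner in the NADH module, NDUFV2, chosen after its values were seen, went the other way, from 139 and 141 to 115 and 114 TPM (-0.29, limma adjusted p = 0.0102, or 0.0574 when DMSO replicate 2 was left out). After an adjustment for GC content the log2 fold change of NDUFV1 was 0.07 with an adjusted p of 0.257.

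Of the 30 accessory subunits, which surround the core, 3 rose and 8 fell, and between 2 and 9 fell and 0 or 1 rose with any one library left out. NDUFA5, in the peripheral arm, was at 29.7 and 29.2 TPM with DMSO and at 16.5 and 21.3 TPM with niraparib (log2 fold change -0.62 ± 0.13, limma adjusted p = 0.0217). The niraparib libraries were lower but apart from each other, and leaving out either DMSO library raised the adjusted p, to 0.0795 for replicate 1 and 0.0712 for replicate 2. NDUFAB1, the mitochondrial acyl carrier protein, was at 238 and 230 against 169 and 189 TPM (-0.39, limma adjusted p = 0.0116), with an adjusted p of 0.0512 without DMSO replicate 1. NDUFB4, in the membrane arm, was at 373 and 362 against 297 and 302 TPM (-0.30 ± 0.037, limma adjusted p = 0.00604). Its groups were well apart, and the call held without any one library. It was lost without trend and robust priors and in the GC-adjusted fit, but not in the fit also centred.

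The accessory subunits that rose had small fold changes. NDUFB11 was at 364 and 351 against 426 and 390 TPM (log2 fold change 0.19, limma adjusted p = 0.0468), and NDUFA11 at 466 and 500 against 548 and 553 TPM (0.19, limma adjusted p = 0.0293). Both encode parts of the membrane arm. NDUFA13, also known as GRIM-19 and the nuclear complex I gene with the highest mean TPM, was at 566 and 565 against 622 and 616 TPM (0.13, limma adjusted p = 0.0289). In these 3 genes both niraparib libraries were above both DMSO libraries. All 3 calls were lost under median-of-ratios and upper quartile scaling. They were also lost in fits that left out a library, which keep 1 library in a group. In the GC-adjusted fit NDUFA11 turned to -0.09 and NDUFA13 to -0.14.

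The assembly factors of complex I, which build it without staying in it, had a median log2 fold change of -0.30, with 0 of 8 higher, 2 lower and 6 not passed. NDUFAF5 (chr20:13765653-13802226), an enzyme that hydroxylates NDUFS7, was at 30.5 and 32.1 TPM with DMSO and at 17.1 and 20.0 TPM with niraparib (-0.73 ± 0.10, limma adjusted p = 0.00773). NDUFAF8 (chr17:79213105-79215110), which stabilises NDUFAF5, was at 139 and 139 against 105 and 106 TPM (-0.39 ± 0.046, limma adjusted p = 0.00514). Both were lower in each niraparib library than in each DMSO library and kept their call under every alternative run. NDUFAF4, chosen after its values were seen, was at 16.3, 13.4, 7.03 and 10.9 TPM in the same order of libraries and did not pass (-0.69, limma adjusted p = 0.0617, or 0.0462 under median-of-ratios and 0.0481 under upper quartile scaling).

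Complex II, the succinate dehydrogenase, was divided between its subunits: 0 of 4 rose, 2 fell and 2 did not pass. SDHB (chr1:17345159-17380527), the iron-sulphur subunit, was at 122 and 125 TPM with DMSO and at 95.5 and 100.4 TPM with niraparib (log2 fold change -0.33 ± 0.052, limma adjusted p = 0.0104). SDHD (chr11:111957548-111990739), a membrane anchor, was at 88.6 and 94.4 against 68.9 and 72.1 TPM (-0.37 ± 0.061, limma adjusted p = 0.0115). In both genes the groups were clearly apart. Without DMSO replicate 2 the adjusted p was 0.0544 for SDHB and 0.0583 for SDHD, and without niraparib replicate 1 it was 0.0564 for SDHD.

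SDHA and SDHC did not pass. SDHA (chr5:218418-257197), the flavin subunit that oxidises succinate, was at 121 and 111 TPM with DMSO and at 111 and 111 TPM with niraparib (log2 fold change -0.07, 95% interval -0.22 to 0.09, limma adjusted p = 0.424). SDHC (chr1:161284171-161332996), the other membrane anchor, was at 112 and 120 against 113 and 134 TPM (0.08, 95% interval -0.15 to 0.32, limma adjusted p = 0.52). The spread within a group was as wide as the distance between the groups. SDHC turned to -0.016 under median-of-ratios scaling and to -0.040 without niraparib replicate 2.

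Of 9 nuclear subunits of complex III, the cytochrome bc1 complex, 2 fell and 7 did not pass, with a median log2 fold change of -0.11. UQCRFS1, the Rieske iron-sulphur protein, was at 60.1 and 54.6 TPM with DMSO and at 45.2 and 44.1 TPM with niraparib (-0.35 ± 0.073, limma adjusted p = 0.0211). The accessory subunit UQCR10 was at 175 and 169 against 145 and 144 TPM (-0.25, limma adjusted p = 0.0139). Niraparib libraries were the lower pair in both genes. The calls were lost without single libraries, with adjusted p of 0.106 for UQCRFS1 and 0.0807 for UQCR10 without DMSO replicate 1. For UQCRFS1 it was 0.0736 without niraparib replicate 1 and 0.0732 without niraparib replicate 2, and for UQCR10 0.0501 without DMSO replicate 2 and 0.0540 without niraparib replicate 1. UQCRH, the hinge protein with the highest mean TPM of this complex, was at 554 and 527 against 517 and 488 TPM and did not pass (-0.11, limma adjusted p = 0.132).

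In complex IV, the cytochrome c oxidase, the nuclear subunits went both ways, with 3 of 14 higher, 5 lower and 6 not passed and a median log2 fold change of -0.01. The 21.4% higher was near the 20.8% over all genes tested, and 35.7% were lower beside 11.7%. Leaving out DMSO replicate 1 or niraparib replicate 1 gave 1 higher and 3 lower, DMSO replicate 2 gave 3 and 5, and niraparib replicate 2 gave 2 and 4. The 14 include COX6A2 and NDUFA4L2, which passed the filter only through their niraparib libraries. With all 4 libraries kept and at least 1 TPM required in each, 2 of 12 were higher and 5 lower, with a median of -0.12. COX7B (chrX:77154937-77162873), a membrane subunit, was at 80.8 and 76.4 TPM with DMSO and at 47.2 and 49.9 TPM with niraparib (-0.68 ± 0.065, limma adjusted p = 0.00338). Both niraparib libraries lay far below, and the call held under every alternative run. COX6C, another membrane subunit, was at 442 and 419 against 309 and 345 TPM (-0.40 ± 0.064, limma adjusted p = 0.0107), and COX7C at 640 and 642 against 507 and 500 TPM (-0.35 ± 0.031, limma adjusted p = 0.00311). Both kept their call without any one library, and the GC-adjusted adjusted p was 0.0591 for COX6C and 0.223 for COX7C.

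Subunits with forms that differ between tissues went both ways too. COX4I1, the common form of subunit 4, was at 860 and 890 TPM with DMSO and at 995 and 994 TPM with niraparib (log2 fold change 0.18, limma adjusted p = 0.0121, and 0.066 without DMSO replicate 1 or 0.0549 without niraparib replicate 1, or 0.090 under median-of-ratios scaling). COX6A1 (chr12:120875893-120878540), the common form of subunit 6A, was at 930 and 957 against 1111 and 1083 TPM (0.22 ± 0.032, limma adjusted p = 0.00857). Its call held without any one library. COX6A2, the heart and muscle form of the same subunit, was at 0.450 and 1.70 TPM with DMSO and at 6.47 and 4.13 TPM with niraparib (1.65 ± 0.36, limma adjusted p = 0.0236). The gene passed the filter only through the niraparib libraries. Its DMSO libraries differed from each other widely, and leaving out DMSO replicate 1 gave an adjusted p of 0.0542, niraparib replicate 1 one of 0.118 and niraparib replicate 2 one of 0.0563. COX6A1 was 2067 and 563 times COX6A2 with DMSO and 172 and 262 times with niraparib, so the common form was the abundant one in every library.

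NDUFA4, a subunit named for complex I and found in complex IV, was at 62.5 and 55.0 TPM with DMSO and at 46.5 and 47.8 TPM with niraparib (log2 fold change -0.31, limma adjusted p = 0.0396, or 0.0983 to 0.177 when DMSO replicate 1 or either niraparib library was left out). With the replicate number as a block the adjusted p was 0.0553. Its relative NDUFA4L2, which is induced by hypoxia, was at 0.250 and 0.980 against 2.16 and 1.52 TPM and did not pass (0.84 ± 0.29, limma adjusted p = 0.0782). COX6B1 was at 619, 648, 610 and 603 TPM in the same order of libraries (-0.06, limma adjusted p = 0.236) and COX7A2 at 137, 153, 143 and 154 TPM (0.03, limma adjusted p = 0.744). In COX7A2 the groups overlapped and the sign turned under both other scalings. COX8A, the nuclear gene of complex IV with the highest mean TPM, was at 1150, 1129, 1205 and 1187 TPM (0.07, limma adjusted p = 0.114), and turned to -0.14 in the GC-adjusted fit with an adjusted p of 0.0287. COX4I2, COX6B2, COX7A1, COX7B2 and COX8C were not analysed here.

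In complex V, the ATP synthase, 17 of 18 nuclear genes had a negative fold change, with a median of -0.18: 1 rose, 9 fell and 8 did not pass. These were 5.56% higher and 50% lower, beside 20.8% and 11.7% over all genes tested. Leaving out DMSO replicate 1 left 3 lower genes, DMSO replicate 2 or niraparib replicate 1 left 4, and niraparib replicate 2 left 7. Of the 5 genes of the F1 head and its central shaft, which make ATP, 4 fell, with a median log2 fold change of -0.25. With any one library left out that median was between -0.27 and -0.22. ATP5F1E, the epsilon subunit of the shaft, was at 71.8 and 68.0 TPM with DMSO and at 52.5 and 54.4 TPM with niraparib (log2 fold change -0.38 ± 0.062, limma adjusted p = 0.0113). ATP5F1C, the gamma subunit, was at 240 and 228 against 182 and 196 TPM (-0.31, limma adjusted p = 0.0146). Both genes had lower values in both niraparib libraries. Leaving out replicate 1 of DMSO or of niraparib gave an adjusted p of 0.0649 or 0.0544 for ATP5F1E and 0.0679 or 0.0594 for ATP5F1C.

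Of the 4 genes of the outer stalk, which holds the head still, 3 fell, with a median log2 fold change of -0.27. With any one library left out that median was between -0.29 and -0.25. ATP5PB (chr1:111991486-112005395), its b subunit, was at 140 and 139 TPM with DMSO and at 98.8 and 100.8 TPM with niraparib (log2 fold change -0.48 ± 0.046, limma adjusted p = 0.00355). The libraries of each group were nearly equal, and the call held under every alternative run. ATP5MF, the f subunit and the nuclear gene with the highest mean TPM among the 90, was at 1371 and 1370 against 1235 and 1168 TPM (-0.19, limma adjusted p = 0.0155, or 0.0638 and 0.0604 when DMSO replicate 1 or 2 was left out). The 1 gene that rose was ATP5IF1, the inhibitor of ATP hydrolysis, at 286 and 296 against 322 and 332 TPM (0.17, limma adjusted p = 0.0315). This call was lost without any one library, with adjusted p from 0.0686 to 0.151, and under both other scalings.

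**Figure D3:**
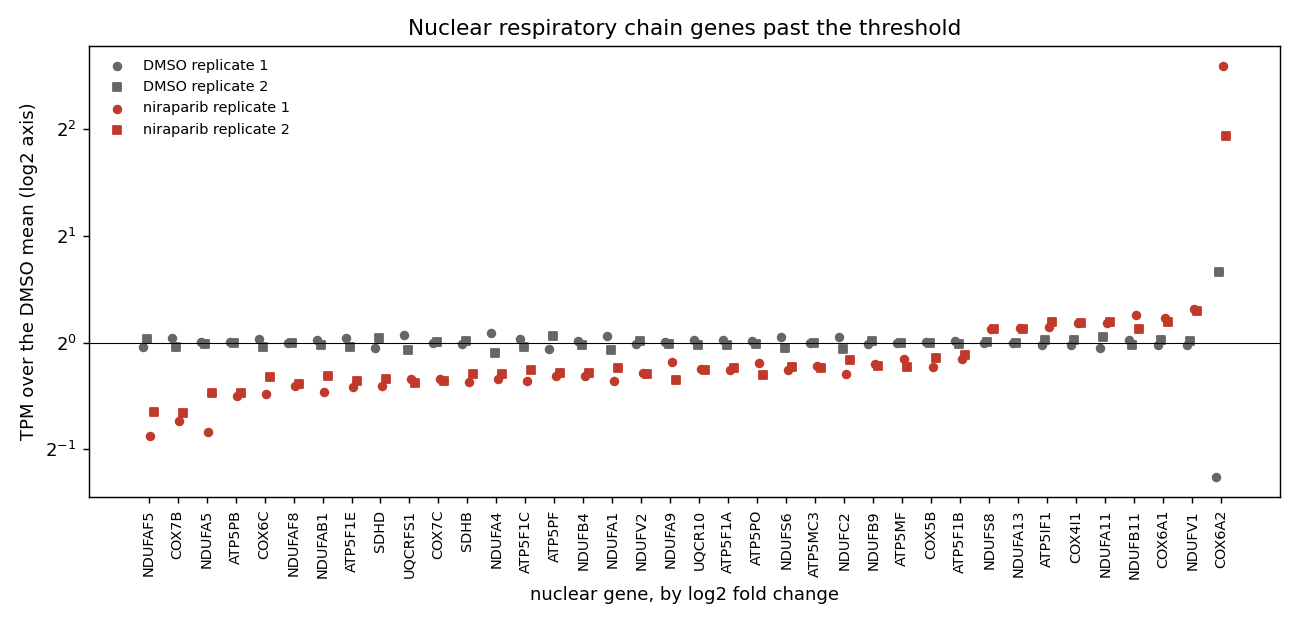
TPM of each library over the mean of the DMSO libraries (y axis, log2 scale) for the 38 nuclear genes past the threshold, in the order of their fold change (x axis), grey for DMSO and red for niraparib. The 29 genes that fell have both red points under both grey points, which is nearly given for genes that pass with 2 libraries per group. The DMSO libraries of COX6A2 at the right are far apart.

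Summed over genes, the balance between the genomes moved towards the mitochondria in every complex that holds both. The 13 mitochondrial mRNAs together made 76952 and 76423 TPM with DMSO and 91586 and 89101 TPM with niraparib, from 7.67% to 9.03% of all transcripts. The niraparib sum was 1.18 ± 0.024 times the DMSO sum (SD, n = 2 per group). The 90 nuclear genes made 23802 and 23670 against 22318 and 22614 TPM, 0.947 ± 0.0096 times. No test was made, since an exact permutation test of 2 against 2 libraries cannot go below p = 0.333.

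The mitochondrial sum was 3.23 and 3.23 times the nuclear sum with DMSO and 4.10 and 3.94 times with niraparib. Subunits of complex I, without assembly factors, gave 3.21 and 3.21 against 4.21 and 3.93, those of complex III 1.64 and 1.68 against 2.27 and 2.26, those of complex IV 4.09 and 4.11 against 5.13 and 4.93, and those of complex V 3.45 and 3.40 against 4.09 and 4.07. A ratio within a library does not depend on how the libraries are scaled. At the deposited scale the mitochondrial sums of complexes I, III and IV moved further from DMSO than the nuclear sums, at 1.22 ± 0.040, 1.28 ± 0.014 and 1.22 ± 0.029 times DMSO, against 0.965 ± 0.019, 0.941 ± 0.010 and 0.991 ± 0.0049 times for the nuclear sum. Complex V differed, with a mitochondrial sum of 1.07 ± 0.012 and a nuclear sum of 0.897 ± 0.0030 times DMSO, and complex II was at 0.900 ± 0.047 times. The 3 mitochondrial mRNAs under 350 bases made 32405 and 31332 TPM of the sum with DMSO, and without them the mitochondrial ratio was 1.23.

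**Figure D4:**
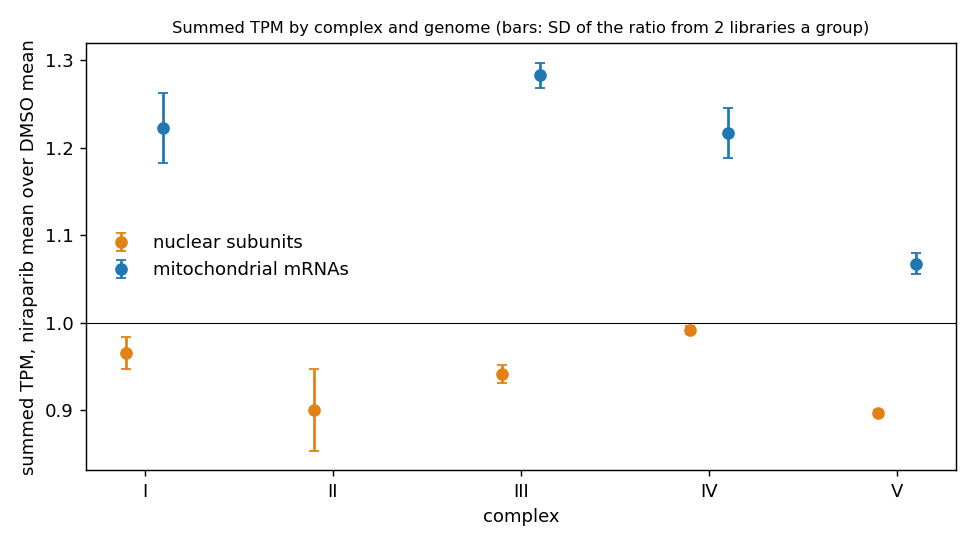
Summed TPM of niraparib over DMSO (y axis, ratio of group means, bars show the SD of the ratio from 2 libraries per group) by complex (x axis) for nuclear subunits and mitochondrial mRNAs. Mitochondrial sums lie at 1.07 to 1.28 and nuclear sums at 0.897 to 0.991.

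Fold change moved with GC content among these genes as it did in the whole table. Spearman's rho between log2 fold change and the GC content of the longest transcript was 0.54 over the 90 nuclear genes and 0.51 over 12503 nuclear genes, a description across genes of the same libraries. The nuclear genes that fell had a median GC content of 43.4%, those that did not pass 47.7% and those that rose 57.9%. The mitochondrial mRNAs, at 39.6% to 47.7% with a median of 44.3%, were in the range of the genes that fell, whereas the 4067 nuclear genes in this range had a median log2 fold change of -0.06. With the GC trend of each library removed, 24 nuclear genes fell and 6 rose, and 14 of the 29 and 4 of the 9 were the same genes. Over all genes in that fit 1298 fell and 1950 rose. When each library was also centred 35 fell and 3 rose, and 18 of the 29 and 3 of the 9 were the same genes. In that form 1823 of all genes fell and 1489 rose. Among the named genes ATP5F1E, COX7C, SDHD, NDUFA5, NDUFA4, NDUFV1, NDUFA11, ATP5IF1 and NDUFA13 lost their call in both forms of this adjustment, as did SURF1 and GABPA, whose values are given with their lists, and NDUFV2 (adjusted p = 0.192 and 0.0651). Of the respiratory chain genes named, UQCRFS1, ATP5F1C, COX6C and NDUFB4 lost it in the first form alone and NDUFB11 in the centred form alone. The part of GC content in the calls was not tested further, and the mitochondrial mRNAs did not enter that adjustment.

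**Figure D5:**
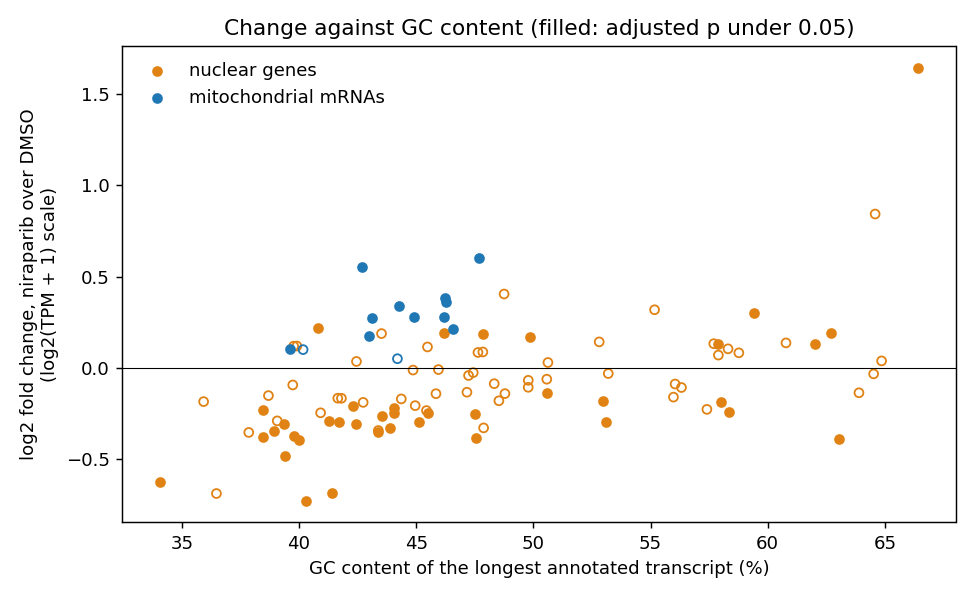
Log2 fold change of niraparib over DMSO (y axis, log2(TPM + 1) scale) against the GC content of the longest annotated transcript (x axis, %), one point per gene, filled where the adjusted p was under 0.05. Nuclear points rise from left to right, while mitochondrial points, between 39.6% and 47.7% GC, lie above most nuclear points of the same GC content.

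Many nuclear respiratory genes are known to be controlled by the transcription factors NRF1, GABPA and YY1. Promoters, from 250 bases before to 50 bases after the start, were found for 74 of the 90 nuclear genes in RefSeq on GRCh38.p14 and searched on both strands. The NRF1 motif (GCGCA, any base, then GCGC) was in 23% of them and in 6.28% of all 27305 promoters, the ETS motif of GABPA, CCGGAAG, in 28.4% and 10.7%, and the YY1 motif AAGATGGC in 14.9% and 3.03%. Among the genes that fell the NRF1 motif was in 8 of 22 promoters, among those that rose in 1 of 9 and among those that did not pass in 8 of 43. For the ETS motif these counts were 5, 3 and 13, and for the YY1 motif 5, 0 and 6. The 27305 promoters were not limited to genes tested here and were not matched for GC content. A match is a description of letters, and binding was not measured here.

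Promoters of complex II are shown because its subunits fell or did not pass within one small complex. For SDHC, which did not pass, no promoter was found, so the complex is not fully covered. NDUFB4 and COX6A1 are added as examples of a gene that fell and one that rose. That pair was picked by no stated rule. Among the genes that fell the NRF1 motif was in 8 of 22 promoters, and among those that rose in 1 of 9. Capitals mark the NRF1, ETS and YY1 motifs on either strand. SDHA, which did not pass, holds 4 NRF1 motifs, SDHB, which fell, an ETS and a YY1 motif, SDHD, which fell, an NRF1 and an ETS motif, NDUFB4 holds 3 NRF1 motifs and COX6A1 1 ETS motif. They lie at chr5:218070-218369 (plus strand), chr1:17053983-17054282 (minus), chr11:112086623-112086922 (plus), chr3:120596086-120596385 (plus) and chr12:120437863-120438162 (plus) of GRCh38.p14.
SDHA: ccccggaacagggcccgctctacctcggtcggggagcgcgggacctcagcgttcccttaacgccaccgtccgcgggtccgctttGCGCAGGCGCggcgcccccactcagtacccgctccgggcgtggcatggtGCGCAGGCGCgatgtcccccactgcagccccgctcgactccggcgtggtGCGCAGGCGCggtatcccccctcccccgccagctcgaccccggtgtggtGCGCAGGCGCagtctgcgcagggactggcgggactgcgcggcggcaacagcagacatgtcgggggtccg
SDHB: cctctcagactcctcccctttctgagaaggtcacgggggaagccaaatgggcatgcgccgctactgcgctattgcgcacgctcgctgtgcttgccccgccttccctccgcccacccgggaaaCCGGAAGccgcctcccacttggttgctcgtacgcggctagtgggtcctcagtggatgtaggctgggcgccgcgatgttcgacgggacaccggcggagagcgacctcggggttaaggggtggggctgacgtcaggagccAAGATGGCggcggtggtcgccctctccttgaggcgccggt
SDHD: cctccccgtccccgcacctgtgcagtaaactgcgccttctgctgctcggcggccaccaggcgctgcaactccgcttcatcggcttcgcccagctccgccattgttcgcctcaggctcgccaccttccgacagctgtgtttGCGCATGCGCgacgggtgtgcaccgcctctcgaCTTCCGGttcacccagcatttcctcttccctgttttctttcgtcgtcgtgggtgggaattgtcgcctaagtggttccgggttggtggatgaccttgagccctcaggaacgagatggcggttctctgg
NDUFB4: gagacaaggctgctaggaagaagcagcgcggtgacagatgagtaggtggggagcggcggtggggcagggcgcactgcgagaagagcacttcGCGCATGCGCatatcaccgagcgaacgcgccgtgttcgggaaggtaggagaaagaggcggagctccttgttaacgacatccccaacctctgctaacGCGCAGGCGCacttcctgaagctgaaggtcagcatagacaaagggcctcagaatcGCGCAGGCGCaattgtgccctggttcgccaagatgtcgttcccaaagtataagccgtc
COX6A1: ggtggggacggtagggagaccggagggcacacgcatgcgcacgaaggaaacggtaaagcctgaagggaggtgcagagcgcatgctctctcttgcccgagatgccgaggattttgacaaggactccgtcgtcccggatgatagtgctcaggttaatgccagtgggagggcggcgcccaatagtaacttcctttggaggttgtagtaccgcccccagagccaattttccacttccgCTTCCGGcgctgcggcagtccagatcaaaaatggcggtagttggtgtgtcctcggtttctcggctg

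Of the nuclear genes that transcribe mitochondrial DNA and process its RNA more fell than rose. Of 31 genes tested 10 fell, 2 rose and 19 did not pass, where 11.7% of all genes tested fell and 20.8% rose. The median log2 fold change was -0.33, and between -0.35 and -0.21 with any one library left out. SLIRP, which stabilises mitochondrial mRNAs together with LRPPRC, was at 511 and 486 TPM with DMSO and at 346 and 357 TPM with niraparib (-0.50, limma adjusted p = 0.00285). MRPL12, a ribosomal protein that also binds POLRMT, was at 134 and 133 against 96.8 and 95.5 TPM (-0.47, limma adjusted p = 0.00379). Both were lower in every niraparib library. TFAM, which packages mitochondrial DNA and starts its transcription, was chosen after its values were seen, at 45.9 and 46.7 against 25.99 and 28.28 TPM (-0.75, limma adjusted p = 0.00385). With the GC trend removed TFAM was at -0.39 (limma adjusted p = 0.0129), or -0.45 (0.00805) when also centred. TFB2M, likewise chosen, was at 22.9 and 27.2 against 12.3 and 16.9 TPM (-0.75, limma adjusted p = 0.026). The TFB2M call was lost without trend and robust priors and in the GC-adjusted fit. POLRMT itself, likewise chosen, was at 39.3 and 42.1 against 37.03 and 40.51 TPM and did not pass (-0.07, limma adjusted p = 0.549), but with the GC trend removed it was at -0.40 (adjusted p = 0.0301), or -0.46 (0.0174) when also centred.

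Genes for the replication and upkeep of mitochondrial DNA were mixed, with 4 of 20 higher and 5 lower. Over all genes tested 20.8% rose and 11.7% fell, so the higher count was near that share. The median log2 fold change was 0.01, and between -0.13 and 0.0009 with any one library left out. SSBP1, which binds its single strands, went from 362 and 355 to 247 and 267 TPM (-0.48, limma adjusted p = 0.00417), and SUCLA2, a succinyl-CoA synthetase subunit, from 19.9 and 20.5 to 9.38 and 11.0 TPM (-0.93, limma adjusted p = 0.00541). In both, niraparib libraries were the lower ones. Of 50 further assembly factors of complexes I to V, 2 rose and 12 fell, with a median of -0.18, and between -0.23 and -0.13 with any one library left out. COX17, which carries copper to complex IV, went from 96.9 and 83.2 to 58.7 and 50.9 TPM (-0.71, limma adjusted p = 0.00896). SURF1, also an assembly factor of complex IV, went from 51.6 and 49.5 to 68.0 and 65.0 TPM (0.39, limma adjusted p = 0.0106, or 0.0546 and 0.053 when DMSO replicate 2 or niraparib replicate 1 was left out).

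Of 15 genes of ubiquinone synthesis and cytochrome c 0 rose and 3 fell, where 20.8% of all genes tested rose and 11.7% fell. The median log2 fold change was 0.08, and between 0.01 and 0.08 with any one library left out. PDSS1, which starts the ubiquinone side chain, went from 13.3 and 13.8 to 5.20 and 6.07 TPM (-1.14, limma adjusted p = 0.00434), and COQ3, a methyltransferase of the pathway, from 14.0 and 16.3 to 7.64 and 9.22 TPM (-0.78, limma adjusted p = 0.0136, or 0.0595 and 0.0594 when DMSO replicate 2 or niraparib replicate 1 was left out). Of 13 nuclear regulators 2 rose and 2 fell, near the shares over all genes tested. Their median log2 fold change was -0.11, and between -0.10 and -0.05 with any one library left out. EPAS1, the hypoxia-inducible factor HIF-2 alpha, went from 4.27 and 3.93 to 14.2 and 15.8 TPM (1.64, limma adjusted p = 0.00242). GABPA went from 6.01 and 6.39 to 3.58 and 3.31 TPM (-0.70, limma adjusted p = 0.0177), but its adjusted p was between 0.0614 and 0.0854 with any one library left out. NRF1 and YY1, chosen after their values were seen, did not pass, with log2 fold changes of -0.12 and 0.00087, the latter turning to -0.094 under median-of-ratios and -0.067 under upper quartile scaling.

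In the tricarboxylic acid cycle, which feeds the chain with NADH and succinate, 8 of 18 genes fell and 2 rose. Over all genes tested 11.7% fell and 20.8% rose. The median log2 fold change was -0.25, and between -0.28 and -0.20 with any one library left out. IDH2, the mitochondrial NADP-dependent isocitrate dehydrogenase, went from 99.6 and 88.1 to 177 and 179 TPM (0.92, limma adjusted p = 0.00254), with both niraparib libraries far above. SUCLA2, given above, belongs to this list too.

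Markers of cell identity were checked in all libraries. PAX8, a thyroid transcription factor, was at 189 to 207 TPM, FOXE1 at 1.95 and 2.21 with DMSO and 4.61 and 3.63 with niraparib, SLC26A4 and DIO1 were under 1 TPM, and TG, TSHR, SLC5A5, NKX2-1 and DIO2 were not analysed here. The defining leukocyte markers PTPRC and CD3E were not analysed here, while CD68 went from 20.1 and 19.6 to 31.3 and 36.3 TPM and CD14 from 2.79 and 3.07 to 4.82 and 4.43 TPM. The 2 leukocyte markers summed to 22.7 to 22.9 TPM with DMSO and 36.1 to 40.7 TPM with niraparib, and their part in the results was not tested. Those of endothelial cells and fibroblasts summed to 0.230 to 1.40 TPM. KRT7, KRT8 and KRT18 were at 812 to 1301 TPM, and KRT19 went from 330 and 341 to 639 and 641 TPM.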

How the data were processed

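The 4 RNA-Seq libraries of Cal-62 cells were grouped by the treatment in their labels. In the paper's methods, Trim Galore was used for trimming and STAR for alignment to the human build hg19. HISAT2 with hg38 and mm10 stands in the submitters' processing notes beside Trim Galore. The deposited values are TPM, computed by the authors within each library. The tool and annotation behind the TPM are not given in the sources used here.

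The members and all gene lists were chosen with earlier results of these data known. Symbols were matched to GENCODE release 44 on GRCh37 for 14842 of 16717 genes, 190 through older symbols. Pseudogenes, antisense and divergent transcripts and the read-through NDUFC2-KCTD14 were left out, and reads shared with pseudogenes could not be separated.

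The genes were compared as log2(TPM + 1) with limma 3.58.1 (R 4.3.3), using a mean-variance trend, robust priors, Benjamini-Hochberg adjustment over 13377 genes, a threshold of 0.05 and 95% intervals. Named were all mitochondrial mRNAs, all of complex II, in each other complex the nuclear gene of highest mean TPM and up to 3 with the highest and 3 with the lowest fold change past the threshold with a mean log2(TPM + 1) of at least 3, the highest and lowest such assembly factors, tissue forms of complex IV with their partners, and up to 2 genes of each further list. Others are marked as chosen after their values were seen. Some marker genes are not reported here.

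Alternatives were 2 other scalings, TPM rescaled over nuclear genes, pseudocounts of 0.1 and 0.5, other filters, limma with plain priors, a block on the replicate number, each library left out and 2 GC adjustments by loess with a span of 0.5 over 12503 genes. A lone library was assumed to vary like the other group. The procedure was tested on simulated data.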

Additional observations from a re-analysis of the deposited data

How the results depend on the processing

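The counts depended most on scaling, priors and single libraries. With main counts of 29 lower and 9 higher nuclear genes and 11 higher mitochondrial mRNAs, median-of-ratios scaling gave 45 lower and 3 higher nuclear genes, upper quartile scaling 4 higher, limma without trend and robust priors 7 lower, 0 higher and 5 mitochondrial, the GC-adjusted and centred fit 3 higher, and leaving out one library 13 to 28 lower and 2 to 5 higher. The nuclear sum was 0.882 and the mitochondrial sum 1.10 times DMSO under median-of-ratios scaling, and the latter 1.23 without mRNAs under 350 bases, an alternative chosen after seeing the data. The cause was not tested.

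Replicate 1 libraries of the groups did not deviate together (r = -0.01 over 13377 genes). The labels give a replicate number and nothing else on pairing, and so few libraries cannot decide whether the samples were paired. With the replicate number as a block 27 nuclear genes fell, 8 rose and 12 mitochondrial mRNAs rose, including 25, 7 and 11 of those called without it. Over all genes tested 1339 then fell and 2400 rose.

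Among the genes named by the rule, single log2 fold changes changed sign in 8. Under median-of-ratios scaling they were -0.052 for MT-ATP6, -0.032 for COX8A, -0.066 for COX7A2, -0.016 for SDHC and -0.0016 for MT-ND3, and under upper quartile scaling -0.022 for MT-ATP6, -0.0024 for COX8A and -0.037 for COX7A2. In the GC-adjusted fit, and in that also centred, they were -0.14 and -0.21 for COX8A, -0.094 and -0.16 for NDUFA11, -0.14 and -0.21 for NDUFA13 and -0.052 and -0.12 for KRT8. Over all 90 nuclear genes the number with a negative fold change went from 63 to 70 under median-of-ratios scaling and to 67 under upper quartile scaling. With one library left out COX7A2 ranged from -0.045 to 0.12 and SDHC from -0.040 to 0.21.

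Of the other comparisons of single genes with an alternative 723 kept direction and call, 136 lost and 9 gained the call. Without read counts, depth limits could not be given.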
